A study of Mus musculus with 15 samples.

Results

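The 10 Sox genes described here, out of 53465 genes in the table of normalized counts, were found by their symbols and assigned to 4 groups of the Sox family. SoxF held *Sox7*, *Sox17* and *Sox18*, SoxE held *Sox9*, SoxC held *Sox4*, *Sox11* and *Sox12*, and SoxD held *Sox5*, *Sox6* and *Sox13*. All 10 passed the minimum of 5 normalized counts on average over the libraries. RNA sequencing had been carried out on endovascular progenitor (EVP), transit amplifying (TA) and definitive differentiated (D) cells, with 5 libraries of each. The cells came from tumors of B16-F0, a mouse melanoma line, that had grown for 15 days in CAG-GFP mice, a transgenic strain in which GFP is made by practically every cell of the host. The study used mice of both sexes, 8 to 14 weeks old. Every library came from a tumor, so there was no population from tissue free of tumor. All libraries shared the gate GFP+ Lin- CD34+. Within it, EVP cells were low for CD31 and VEGFR2, TA cells had intermediate CD31 with low VEGFR2, and D cells were high for both. The comparisons asked which Sox genes differ along the proposed order from progenitor to differentiated endothelium.

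Sox proteins are transcription factors that bind the minor groove of DNA through a conserved HMG box and bend it, and members of a group share more sequence and often act redundantly. SoxF factors are known for their part in vessel formation, with *Sox17* linked to arterial and *Sox18* to lymphatic endothelium. *Sox9* with *Sox5* and *Sox6* forms the classical trio of cartilage formation, and SoxC factors act in many embryonic progenitors.

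The stretch of 60 coding bases that begins at a conserved run of 7 codons near the start of the HMG box shows how alike the members are in their DNA-binding part. It is printed for the 7 genes whose levels differed between EVP and D (GRCm38, GENCODE annotation, coding strand, capitals at the bases shared by all 10 genes).
Sox7: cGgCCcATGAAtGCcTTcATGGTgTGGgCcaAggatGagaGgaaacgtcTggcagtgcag
Sox17: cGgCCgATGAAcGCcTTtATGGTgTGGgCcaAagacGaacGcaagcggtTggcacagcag
Sox18: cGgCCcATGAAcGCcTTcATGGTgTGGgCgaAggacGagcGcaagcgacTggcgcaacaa
Sox9: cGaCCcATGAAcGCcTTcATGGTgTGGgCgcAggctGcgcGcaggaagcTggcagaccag
Sox12: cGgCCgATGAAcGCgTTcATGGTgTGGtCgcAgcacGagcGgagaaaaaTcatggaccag
Sox5: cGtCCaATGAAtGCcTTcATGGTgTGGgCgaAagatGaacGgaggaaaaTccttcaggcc
Sox13: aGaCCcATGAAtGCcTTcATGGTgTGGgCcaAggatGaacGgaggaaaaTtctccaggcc
These windows lay in coding exons at chr14:63943894-63943953 (plus strand) for *Sox7*, chr1:4493140-4493199 (minus) for *Sox17*, chr2:181671222-181671281 (minus) for *Sox18*, chr11:112782903-112782962 (plus) for *Sox9*, chr2:152397516-152397575 (minus) for *Sox12*, chr6:143841214-143841273 (minus) for *Sox5* and chr1:133385506-133385565 (minus) for *Sox13*. Of the 60 bases, 25 were the same in all 10 genes. The windows were found by a match to the 7 codons at their start, so identity there was partly fixed in advance. This raises all counts of shared bases in the windows. Genes of the same group shared 47 to 54 bases in the 9 pairs, with a median of 51, and genes of different groups 37 to 47 in the 36 pairs, with a median of 41. Over the whole transcripts the longest stretch shared by any 2 members was 48 bases within a group and 35 between groups. None of the 45 pairs shared a stretch as long as a read of 76 bases. *Sox17*, *Sox4* and *Sox5* share exon bases with an annotated gene on the opposite strand, and the kit does not mark strand, so reads of such partners cannot be told apart. These partners were *Gm37587* at *Sox17* (804 shared bases, mean of 12.9 normalized counts in EVP, 60.9 in TA and 19.96 in D), *Gm26735* at *Sox4* (2616 of its 4795 exon bases, listed at 0 throughout) and *Sox5os1* at *Sox5* (1330 bases, mean of 2.70 in EVP).

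Between 5394356 and 26513073 reads per library fell on genes. Replicate 1 had the fewest reads of each population, and the share of 1404 olfactory receptor genes with a read, a measure of background in cells not known to use them, was also highest there, at 96.2% in EVP, 75.9% in TA and 84.4% in D. In replicates 4 and 5 it was between 2.71% and 4.56% in all populations. The markers of the labelled cell type were not alike in the 3 populations. Pan-endothelial genes summed to 2415 to 4335 normalized counts in EVP, 6041 to 73191 in TA and 103436 to 164265 in D, and fibroblast genes to 863257 to 1551217, 196598 to 619562 and 1145 to 4261. *Pecam1* (CD31) and *Kdr* (VEGFR2), used to sort the cells, and 8 of the other 9 pan-endothelial genes were called higher in D than in EVP (limma, Benjamini-Hochberg adjusted p under 0.05), the exception being *Tek*. Of all genes tested, 7.46% were called higher in D and 11.6% higher in EVP. All 10 fibroblast genes were called higher in EVP, as were 5 of 6 keratinocyte genes and 2 of 5 Schwann cell genes tested. Only 1 of 7 melanocyte genes and 1 of 8 leukocyte genes were, shares near that of all genes. Of 11 mural genes 5 were higher in EVP and 2 in D, and of 5 lymphatic genes 1 and 2. Fewer cells of a type and less RNA per cell cannot be told apart in bulk libraries.

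In the comparisons with EVP the SoxF genes had the largest log2 fold changes of the 10 members, being high in D, low or at 0 in EVP and widely spread in TA. *Sox7*, an endothelial SoxF gene on chromosome 14, had 0, 0, 0, 50.4 and 41.5 normalized counts in EVP replicates 1 to 5. Its values were 1793, 489, 815, 567 and 28.6 in TA and 2455, 2152, 1989, 2651 and 2458 in D. A count of 3 reads, the limit of detection used here, equals 10.5, 3.92 and 2.45 normalized counts in the EVP libraries in which *Sox7* was listed at 0, and this limit covers counting error only. Every D library was therefore above every TA and every EVP library, while TA replicate 5 lay below both EVP libraries that had reads of the gene. *Sox17*, the SoxF gene tied to arteries, had 59.7, 2.61, 4.09, 21.6 and 22.8 normalized counts in EVP replicates 1 to 5. It had 1353, 578, 858, 351 and 27.4 in TA and 1737, 2784, 2212, 2278 and 1950.3 in D. D again did not overlap with either population, and TA replicate 5 alone fell within the range of EVP. That library lay below EVP replicate 1 only, the library with the fewest reads of all. The EVP values of *Sox17* rest on 17, 2, 5, 27 and 33 reads in replicates 1 to 5, with replicate 2 under the limit of detection. *Sox18*, mutated in a disorder of lymphatics and hair, had 35.1, 65.3, 2.45, 76.7 and 185 in EVP, from 3 to 267 reads. The values of *Sox18* were 4819, 724, 1475, 995 and 111 in TA and 4771, 4363, 3482, 9898 and 4476 in D. TA replicate 1 reached the level of D for this gene, and TA replicate 5 lay below EVP replicate 5.

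**Figure D1:**
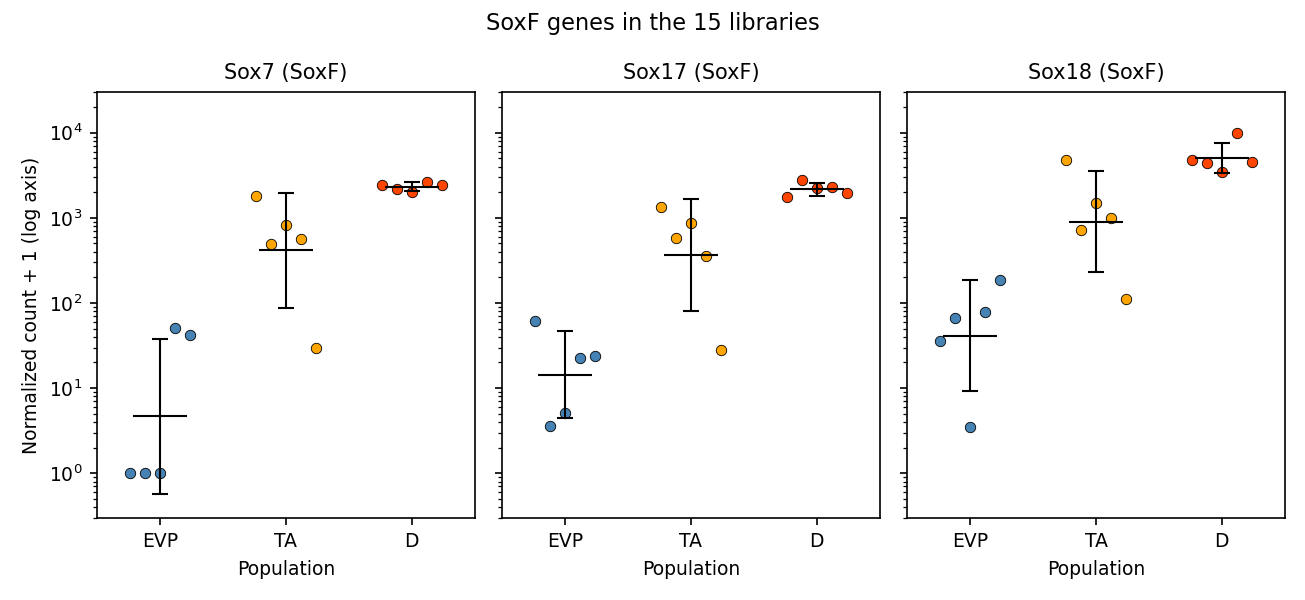
Normalized counts plus 1 of the SoxF genes in each library (log axis), by population and, from left to right within it, replicates 1 to 5. Bars give the mean and SD on the log2 scale (n = 5). D libraries lie between 1737 and 9898 normalized counts, EVP libraries at or under 185, and TA libraries from 27.4 to 4819.

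Between EVP and D, limma on log2(normalized count + 1) called 7 of the 10 Sox genes at a Benjamini-Hochberg adjusted p under 0.05, where 19.0% of the 25549 genes tested were called. Of these 7, all 3 SoxF genes and *Sox13* were higher in D, as were 7.46% of all genes, and *Sox9*, *Sox12* and *Sox5* were higher in EVP, as were 11.6%. The same 7 genes had libraries that did not overlap, against 17.7% of all genes (10.2% with EVP above D and 7.52% with D above EVP). The mean of *Sox7* was 127-fold higher in D than in EVP (log2 fold change -8.97 ± 1.18, SE, limma adjusted p = 2.0e-05). The log2 value depends on the added count of 1 because 3 EVP libraries had no read. *Sox17* was 98.9-fold higher in D (log2 fold change -7.24 ± 0.87, limma adjusted p = 7.8e-06), and *Sox18* 74.1-fold (-6.93 ± 0.93, 2.4e-05). Their median log2 fold change of -7.24 stood beside 0.46 over all genes tested. On replicates 4 and 5 alone, the libraries with the lowest background, the SoxF log2 fold changes were between -6.51 and -5.77 and none passed the threshold (limma adjusted p from 0.0762 to 0.121), an alternative chosen after seeing the data that leaves 2 libraries per population. Without replicate 1 of every population all 7 genes were still called, *Sox13* only just (limma adjusted p = 0.0495).

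Between EVP and TA only the SoxF genes were called among the members, 3 of 10, where 3.50% of all genes were called and 1.94% were called higher in TA. The mean of *Sox7* was 40.2-fold higher in TA (log2 fold change -6.47, limma adjusted p = 0.0061), that of *Sox17* 28.6-fold (-4.68, adjusted p = 0.00689) and that of *Sox18* 22.3-fold (-4.44, adjusted p = 0.0131). The libraries overlapped for each of them, since TA replicate 5 lay within the range of EVP. None was called once replicate 1 was left out of all populations (log2 fold changes from -5.39 to -3.79, limma adjusted p from 0.0604 to 0.137) or on replicates 4 and 5 alone (-2.11 to -1.47, adjusted p from 0.723 to 0.837). With array weights, which give variable libraries less weight, *Sox17* alone was called. DESeq2 called all 3 (DESeq2 adjusted p from 1.0e-08 to 4.5e-04), as did edgeR (edgeR adjusted p from 0.0067 to 0.0196). All 3 also stayed called in each of the 15 fits that left out a single library. Between TA and D no SoxF gene was called, although their means were 3.17 to 3.46-fold higher in D and the libraries did not overlap for *Sox7* and *Sox17*, as for 9.25% of all genes and, higher in D, 3.69%. The log2 fold changes were -2.49 for *Sox7* (95% interval -4.98 to -0.0044), -2.56 for *Sox17* (-4.40 to -0.71) and -2.49 for *Sox18* (-4.45 to -0.53), with limma adjusted p of 0.211, 0.067 and 0.0968. Array weights called *Sox17* (-3.63, limma adjusted p = 0.0028) and *Sox18* (-3.46, adjusted p = 0.022) between TA and D, and an added count of 8 in place of 1 called *Sox17* (-2.49, adjusted p = 0.0364). Without TA replicate 1, *Sox17* and *Sox18* were called between TA and D (limma adjusted p = 0.0304 for each). EVP replicate 3 enters this comparison through the shared estimate of the spread, and without it *Sox18* was called (limma adjusted p = 0.0313).

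Within TA the SoxF genes varied together from library to library. The mean log2(normalized count + 1) of the 3 genes was 11.1, 9.20, 9.98, 9.19 and 5.51 in TA replicates 1 to 5, and that of the 11 pan-endothelial genes was 11.8, 10.1, 10.8, 10.4 and 7.59. Replicate 1 was thus highest and replicate 5 lowest for both. Summed mural genes, markers of pericytes and smooth muscle, went the other way, with 6272 normalized counts in TA replicate 1, the lowest, and 157454 in replicate 5, the highest. Summed fibroblast genes had the same extremes in TA, with 196598 in replicate 1 and 619562 in replicate 5. The part of the makeup of these libraries in the SoxF levels was not tested. Across the 15 libraries the correlations among the SoxF genes on the log2 scale were 0.93 for *Sox7* with *Sox17*, 0.95 for *Sox7* with *Sox18* and 0.93 for *Sox17* with *Sox18*, a description of libraries that share the difference between populations. The 5 genes of 25493 searched whose pattern was most like the SoxF mean over these 15 libraries were *Mfng* (Pearson r = 0.993), *Cdh5* (0.993), *Gimap4* (0.990), *Cd93* (0.990) and *Dll4* (0.987).

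**Figure D2:**
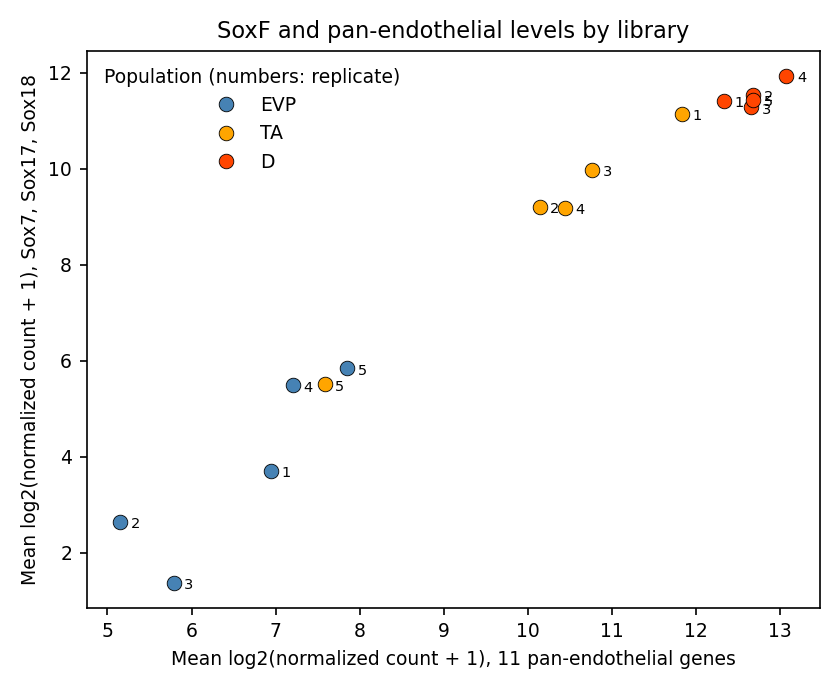
Mean log2(normalized count + 1) of *Sox7*, *Sox17* and *Sox18* (vertical axis) against that of 11 pan-endothelial genes (horizontal axis), with a point for each library and its replicate number. TA replicate 1, at 11.8 and 11.1, lies next to the D libraries, and TA replicate 5, at 7.59 and 5.51, among the EVP libraries.

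Of 8 genes known as SoxF targets, a list that holds the pan-endothelial genes *Cdh5*, *Cldn5* and *Kdr*, 6 were called higher in D than in EVP, 1 higher in EVP and 1 was not called, with a median log2 fold change of -6.74 beside 0.46 over all genes. Of all genes, 7.46% were called higher in D and 11.6% higher in EVP. The endothelial guidance receptor *Robo4* had a mean of 72.0 normalized counts in EVP and 8929 in D (log2 fold change -8.39, limma adjusted p = 9.2e-06). *Cldn5*, of endothelial tight junctions, had 37.7 and 6270.4, and *Dll4*, the arterial Notch ligand, 76.6 and 8091. The adhesion receptor *Vcam1* was the target called higher in EVP, with 2960.3 against 659 (log2 fold change 2.19, limma adjusted p = 1.4e-06). The means of *Prox1*, the lymphatic regulator that Sox18 activates in the embryo, were 88.4 (EVP), 10.4 (TA) and 30.6 (D) normalized counts. Its EVP libraries spread from 0 to 361.6 (SD 153), its TA libraries from 0 to 30.6 and its D libraries from 5.44 to 64.6. With this spread the means give no order of the populations. *Prox1* passed no test (log2 fold change 0.14 between EVP and D, limma adjusted p = 0.956). Between EVP and TA, 6 of the 8 were called, all higher in TA, where 1.94% of all genes were. Between TA and D, 3 were called higher in D and 1, *Vcam1*, higher in TA, beside 4.31% and 8.21% of all genes.

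*Sox9*, the SoxE member and a regulator of cartilage and of several stem cell pools, ran opposite to the SoxF genes. Its values were 474, 799.5, 717, 636 and 531 normalized counts in EVP replicates 1 to 5. TA libraries had 329, 571, 63.6, 239 and 400.4, and D libraries 68.6, 56.3, 0, 6.01 and 10.9. The D values rest on 50, 69, 0, 8 and 18 reads. In the same D libraries 84.4, 21.5, 19.9, 2.71 and 2.71% of olfactory receptor genes had a read, and the part of background in *Sox9* was not tested. All EVP libraries were above all D libraries, and TA overlapped both, with replicate 3 below the highest D library. The mean was 22.3-fold higher in EVP than in D (log2 fold change 5.61 ± 0.89, limma adjusted p = 1.4e-04), and this call held on replicates 4 and 5 alone (5.996, adjusted p = 0.0182). Between TA and D it was 11.3-fold higher in TA (4.35, adjusted p = 0.00296), and 4 of 10 members were called between TA and D beside 12.5% of all genes (8.21% higher in TA, 4.31% in D). Between EVP and TA the log2 fold change was 1.26 with a 95% interval from -0.61 to 3.13 (limma adjusted p = 0.592). The fibroblast genes named above were higher in EVP and TA in the same direction, and their part in the level of *Sox9* was not tested. The 5 genes most like *Sox9* over the 15 libraries, out of the 25493 searched, included *Tmem119* (r = 0.967), *Mmp3* (0.963), *Tpbg* (0.963) and *Runx1t1* (0.962).

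Of 12 cartilage genes that *Sox9* activates with *Sox5* and *Sox6*, 10 could be tested between EVP and D. The fibrillar collagen gene *Col11a1* was the 1 called higher in EVP, where 11.6% of all genes were, with means of 132 and 10.9 normalized counts and overlapping libraries (log2 fold change 4.45, limma adjusted p = 0.0078). The defining cartilage genes stayed low, with means of 7.49, 8.71 and 4.16 normalized counts for *Col2a1* in EVP, TA and D, and 2.53, 9.17 and 2.79 for *Acan*. The whole list summed to 92.4 to 878 normalized counts in EVP, 150.1 to 419.7 in TA and 63.7 to 224 in D. The highest sums of EVP and D were those of replicate 1, which had the most background, and the next were 273 and 126. The part of background in these sums was not tested. The median log2 fold change of the list was 1.61 for EVP against D, beside 0.46 over all genes tested, and 8 of the 10 log2 fold changes were above 0. Between TA and D *Col11a1* and *Col11a2* were called, both higher in TA, as were 8.21% of all genes.

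The SoxD genes, which encode partners without a transactivation domain of their own, went in different directions. *Sox5* had 544, 282, 379.6, 376 and 204 normalized counts in EVP replicates 1 to 5 and 51.7, 80.9, 114, 148 and 263 in TA. In D it had 93.4, 72.7, 1.56, 8.26 and 5.44, with the higher values in replicates 1 and 2. The share of olfactory receptor genes with a read was 84.4, 21.5, 19.9, 2.71 and 2.71% in D replicates 1 to 5. Replicate 3 thus had a share near that of replicate 2 but the lowest *Sox5* value. The part of background in these values was not tested. EVP and D did not overlap, and the mean was 9.85-fold higher in EVP (log2 fold change 4.41 ± 0.81, limma adjusted p = 5.9e-04). The call of *Sox5* between TA and D (2.83, adjusted p = 0.0273) was lost without D replicate 3, 4 or 5 or TA replicate 4 or 5 (limma adjusted p from 0.057 to 0.0791), where the log2 fold change was 2.17 to 2.74. It was also lost with edgeR (1.91, edgeR adjusted p = 0.172), DESeq2 (1.87, DESeq2 adjusted p = 0.0854), quantile normalization (1.53, limma adjusted p = 0.243) and a fit of these 2 populations alone (2.83, limma adjusted p = 0.0858). *Sox5os3*, an RNA from the opposite strand of the *Sox5* locus that shares none of its exon bases, averaged 23.1 normalized counts in EVP, 5.52 in TA and 1.098 in D.

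*Sox13*, the SoxD member known from T cells and arteries, was the sole Sox gene outside SoxF that was called higher in D. It had 133, 48.3, 76.9, 143 and 65.7 normalized counts in EVP and 160.3, 86.1, 7.81, 147 and 81.0 in TA. D libraries had 233, 509, 329.9, 527 and 286, above every library of the other populations. The mean was 4.03-fold higher in D than in EVP (log2 fold change -2.05 ± 0.63, limma adjusted p = 0.0279) and 3.91-fold higher than in TA (-2.39, adjusted p = 0.0163). The call between EVP and D was lost without D replicate 2 or 4 or EVP replicate 2, 3 or 5, each left out alone (limma adjusted p from 0.0558 to 0.0748), while the log2 fold change stayed between -2.23 and -1.84 over all single libraries left out.

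*Sox6*, close to *Sox5* in sequence, was highest in TA. Its values were 316, 90.1, 121, 91.1 and 120.3 normalized counts in EVP, 219, 459.8, 262, 183 and 226 in TA and 56.3, 150.2, 21.1, 77.4 and 55.0 in D. Every TA library was above every D library, as for 5.56% of all genes, and EVP replicate 1, with 90 reads of the gene, exceeded the other EVP libraries and all but 1 TA library. The difference between TA and D was called (3.75-fold, log2 fold change 2.08 ± 0.47, limma adjusted p = 0.00612), and those between EVP and D (1.11, 95% interval 0.12 to 2.10, adjusted p = 0.124) and between EVP and TA (-0.96, interval -1.96 to 0.026, adjusted p = 0.341) were not. Without D replicate 2 the difference between EVP and D was called (1.44, adjusted p = 0.0383).

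**Figure D3:**
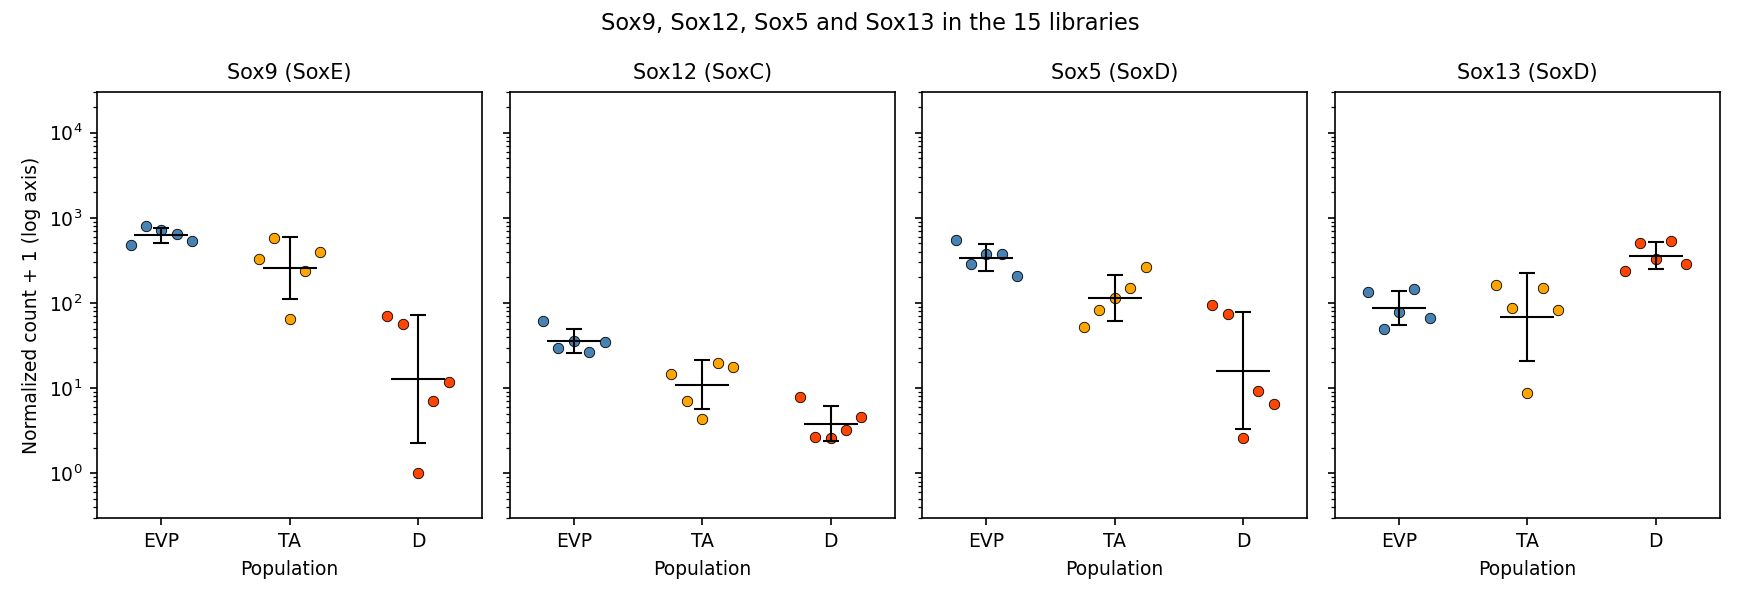
Normalized counts plus 1 of *Sox9*, *Sox12*, *Sox5* and *Sox13* in each library (log axis), by population and, from left to right within it, replicates 1 to 5. Bars give the mean and SD on the log2 scale (n = 5). EVP lies above D without overlap for *Sox9*, *Sox12* and *Sox5*, and below it for *Sox13*.

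Of the SoxC genes, 1 of 3 differed between EVP and D. *Sox12*, the SoxC gene with the weakest transactivation, had 59.7, 28.7, 34.4, 25.6 and 33.9 normalized counts in EVP, 13.8, 6.15, 3.35, 18.8 and 16.8 in TA and 6.86, 1.63, 1.56, 2.25 and 3.63 in D. The D values rest on 2 to 6 reads per library and the EVP values on 17 to 49. EVP was above both other populations without overlap, and its mean was 11.4-fold that of D (log2 fold change 3.24 ± 0.63, limma adjusted p = 0.00108). With quantile normalization this difference was not called (1.76, adjusted p = 0.263). Against TA the mean was 3.09-fold higher in EVP, and the difference did not pass the threshold (1.70, 95% interval 0.36 to 3.04, limma adjusted p = 0.177) although libraries without overlap were found for 4.29% of all genes here, 2.70% higher in EVP and 1.59% higher in TA.

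*Sox11*, a single-exon gene of embryonic progenitors and neurons, ranked 2 per kb of exon among the 10 genes in EVP, 3 in TA and 4 in D, and its populations showed no order. Its values were 1243, 738, 1459, 431 and 677 normalized counts in EVP, 508, 714, 1347, 1798 and 1362 in TA and 844, 729, 693, 853 and 1825 in D. The ranges covered one another, and D replicate 5 stood above the other D libraries. Its log2 fold change from D to EVP was -0.15 with a 95% interval from -0.96 to 0.66, its sign turned without EVP replicate 4 or D replicate 5 (0.08 and 0.09), and no comparison was called (limma adjusted p from 0.839 to 0.861). *Sox4*, which acts with *Sox11* in many tissues, had 126 to 229.9 normalized counts in EVP, with a median of 169, 86.2 to 207 in TA, with a median of 134, and 110.2 to 207 in D, with a median of 172. It was the member with the narrowest intervals, with log2 fold changes of 0.13 (-0.51 to 0.77) between EVP and D, 0.31 (-0.33 to 0.95) between EVP and TA and -0.18 (-0.82 to 0.46) between TA and D. The first of these was -0.59 with quantile normalization. The genes most like *Sox4* over the 15 libraries, *Rcor1* (r = 0.799), *Nptxr* (0.793), *A130051J06Rik* (0.755), *1810010H24Rik* (0.753) and *Stt3b* (0.740), were less close than those of the SoxF mean or *Sox9*. Of 4 genes known as SoxC targets, the neuronal tubulin *Tubb3* was called higher in EVP than in D (624 and 177 normalized counts, log2 fold change 1.92, limma adjusted p = 0.00184), where 11.6% of all genes were, and *Tead2*, *Dcx* and *Ezh2* were not called in any comparison.

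**Figure D4:**
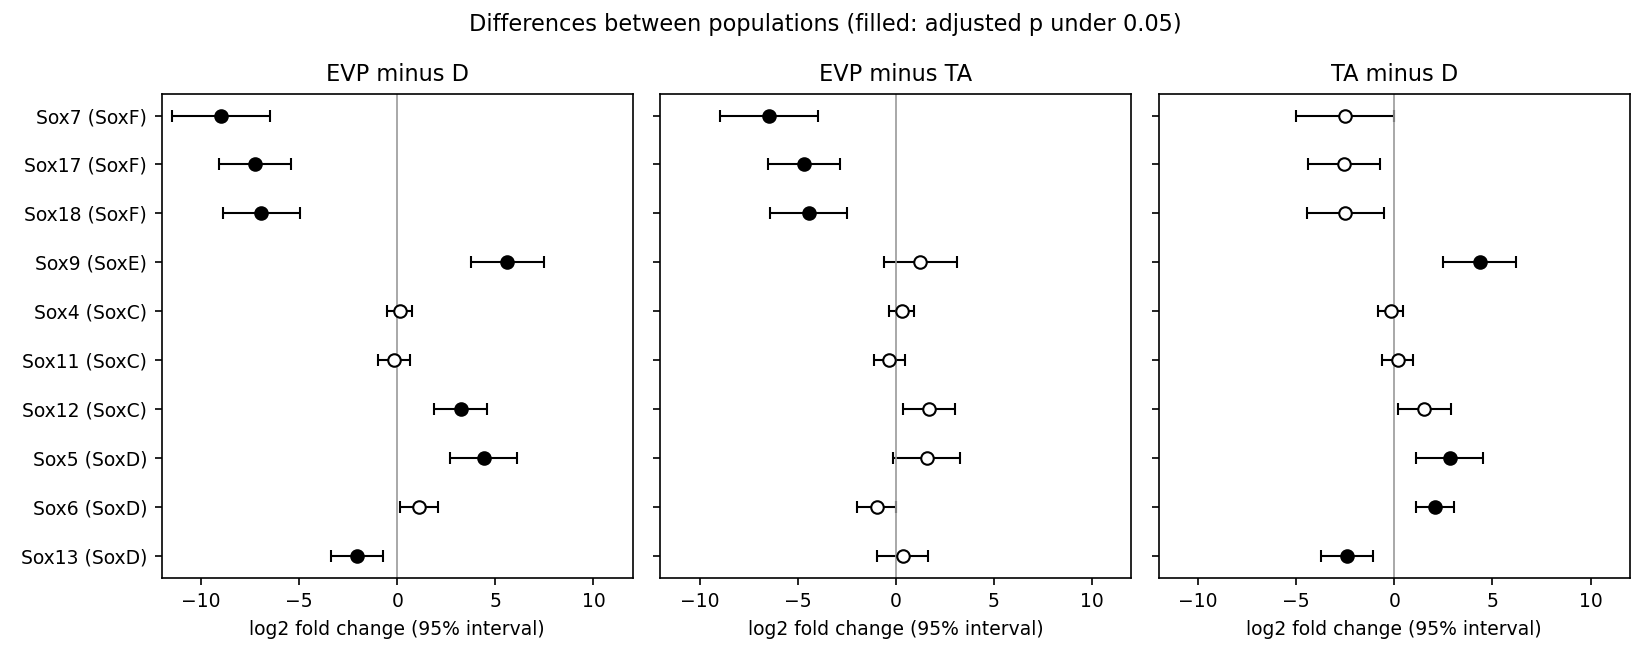
Log2 fold changes of the 10 Sox genes with their 95% intervals from limma in the 3 comparisons, filled where the adjusted p is under 0.05. SoxF genes lie furthest below 0 between EVP and D (-8.97 to -6.93) and are the members called between EVP and TA, and *Sox4* and *Sox11* lie at 0 within their intervals in all comparisons.

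Among the groups of 3 genes, SoxF was the one whose members were all called in the same direction between EVP and D, where SoxC had 1 of 3 and SoxD had 1 in each direction. Of all genes tested, 19.0% were called there, 11.6% higher in EVP and 7.46% higher in D. A count of 0 or 1 in 3 genes cannot be told apart from such shares. By median log2 fold change, EVP minus D, the groups stood at -7.24 in SoxF, 5.61 for the single SoxE gene, 0.13 in SoxC and 1.11 in SoxD. Between TA and D the medians were -2.49 in SoxF, 4.35 for the SoxE gene, 0.17 in SoxC and 2.08 in SoxD. There 0 of 3 SoxF and 0 of 3 SoxC genes were called, beside 12.5% of all genes (8.21% higher in TA, 4.31% in D). All 3 SoxD genes and *Sox9* were called, *Sox13* higher in D and the others higher in TA. Changes of call for *Sox5*, *Sox17* and *Sox18* are given above. *Sox12* had a log2 fold change of 1.53 between TA and D (limma adjusted p = 0.142). It was called higher in TA with DESeq2 (1.98, DESeq2 adjusted p = 0.0204) and with array weights (2.02, limma adjusted p = 0.0083). The comparisons share libraries, so these counts are not independent of each other. On a scale of mean log2 levels on which EVP is 0 and D is 1, TA stood at 0.72 for *Sox7*, 0.65 for *Sox17* and 0.64 for *Sox18*, nearer to D, and at 0.22 for *Sox9* and 0.36 for *Sox5*, nearer to EVP. *Sox12* stood at 0.53, from 0.26 to 0.94 in single TA libraries. *Sox9* was nearer to D in TA replicate 3 (0.58), and *Sox5* in TA replicate 1 (0.61). The position of *Sox7* depends on the added count of 1, since 3 EVP libraries had no read. TA replicate 5 alone was nearer to EVP for the SoxF genes, at 0.30, 0.14 and 0.21, and TA replicate 1 was at 0.96, 0.91 and 0.99.

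Levels of different members were compared per kb of exon. The lengths include the exon bases that *Sox17*, *Sox4* and *Sox5* share with genes on the opposite strand, 2616 of 4795 for *Sox4*. How reads on these bases were counted is not given in the sources, so the levels per kb of these 3 genes are less certain. In D the mean normalized count per kb was 3332 for *Sox18*, 709.6 for *Sox7* and 459 for *Sox17*, followed by 119 for *Sox11* and 87.5 for *Sox13*. The lowest D library of *Sox18* (2149.6 per kb) was above the highest of *Sox7* (804), and the lowest of *Sox17* (364) above the highest of *Sox11* (219.5), so the SoxF genes stood apart from the rest in every D library, while *Sox11* and *Sox13* overlapped. In EVP the order began with *Sox9* at 153 per kb and *Sox11* at 109, whose libraries overlapped. *Sox18* had the next highest mean, 45.0, from 1.51 to 47.4 per kb in replicates 1 to 4 and 114 in replicate 5, a range that covers that of *Sox4* (26.4 to 47.9). *Sox7* (5.57 per kb) and *Sox17* (4.64) had the lowest means there, but in replicates 4 and 5 *Sox7* (15.3 and 12.6) was above *Sox6* and *Sox12*. In TA the mean was 1003 for *Sox18* (SD 1143, n = 5), 224 for *Sox7*, 138 for *Sox11* and 133 for *Sox17*. *Sox18* was above *Sox7*, and *Sox7* above *Sox17*, in every TA library, while *Sox11* was above *Sox18* in replicate 5 and below it in the others.

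As a share of the summed level of the 10 genes per kb, SoxF took 92.5 to 96.4% in D. In TA the share was 94.6, 68.8, 85.1, 70.1 and 19.6% in replicates 1 to 5, and in EVP 7.98, 10.1, 0.516, 17.7 and 31.6%. The share in D was thus nearly constant, and TA covered most of the range between the populations. TA replicate 5 was below EVP replicate 5. Within SoxF, *Sox18* was the main gene in every library, with 66.8 to 82.7% of the SoxF level per kb in D and 62.4 to 82.7% in TA. In EVP *Sox9* or *Sox11* ranked first, and *Sox9* took 26.8 to 47.7% and *Sox11* 13.7 to 38.2% of the summed level.

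**Figure D5:**
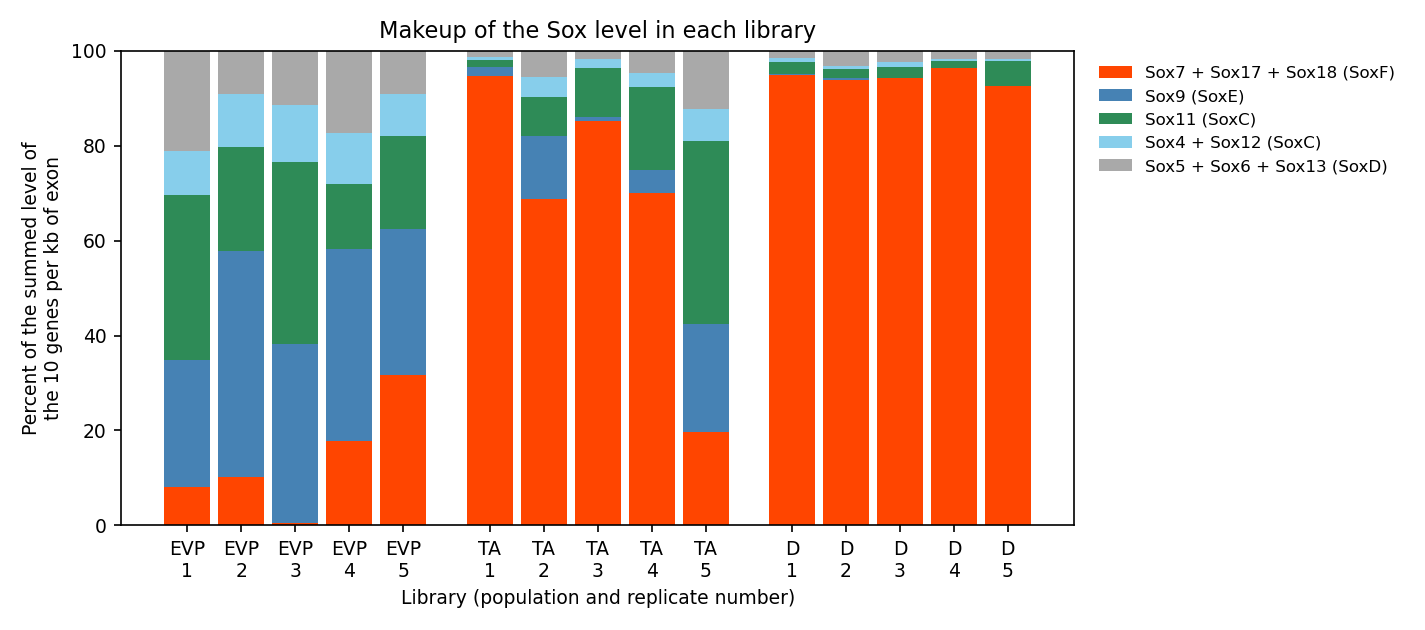
Percent of the summed level of the 10 Sox genes per kb of exon taken by SoxF, *Sox9*, *Sox11*, the other SoxC genes and SoxD in each library. SoxF takes 92.5 to 96.4% in D and at most 31.6% in EVP, and TA replicate 5 (19.6%) lies within the range of EVP.

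Of the 9 other Sox genes listed, 3 reached a mean of 5 normalized counts, *Sox8*, *Sox10* and *Sox15*, and none was called between EVP and D. *Sox1*, *Sox2*, *Sox3*, *Sox14*, *Sox21* and *Sox30* had at most 5.13 normalized counts on average in any population. *Sox10*, the SoxE regulator of melanocytes and Schwann cells, had means of 118 (EVP), 304 (TA) and 95.1 (D) and was called higher in TA than in D (log2 fold change 1.57, limma adjusted p = 0.0468). All 7 melanocyte genes, a list that includes *Sox10*, were called higher in TA than in D, where 8.21% of all genes were, and their sums were 69334 to 176152 normalized counts in TA and 18213 to 47920 in D, while the part of such cells or their RNA in the level of *Sox10* was not tested. *Sox8*, also of SoxE, had means of 19.97, 8.36 and 1.31 in EVP, TA and D and missed the threshold between EVP and D (2.74, limma adjusted p = 0.0539). *Sox15*, at 4.34, 31.4 and 0.824, missed it in all comparisons.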

How the data were processed

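Libraries were made by the authors with a modified Smart-Seq2 protocol, and paired reads of 76 bases were aligned with STAR 2.5.3a to GRCm38 and counted per gene with HTSeq-count, whose strand setting is not given in the sources used here. The deposited values are signal values, gene counts that the authors divided by 1 DESeq2 (1.10.1) size factor per library, and 100% of them were whole reads within 0.01 of a read. The authors' own tables of comparisons hold their fold changes and p-values and were not used.

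Log2(normalized count + 1) was taken of the 25549 genes that averaged 5 or more normalized counts, and was fitted with limma 3.58.1 in R 4.3.3 (1 coefficient per population, all 15 libraries, trend, two-sided), and a gene was called at a Benjamini-Hochberg adjusted p under 0.05 over all of them. A fold is the ratio of the mean normalized counts of 2 populations. Alternatives were edgeR 4.0.16 and DESeq2 1.42.0 on whole reads, other pseudocounts, filters and scalings, array weights, fits of 2 populations, a replicate block, and libraries left out. Exon lengths and windows came from the GENCODE annotation of GRCm38. The sources do not say whether same-numbered libraries came from the same mice. The p-values treat the 15 libraries as independent, and how far they extend to other mice is not known.

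The text names all 10 members, other Sox genes by their counts and levels, list genes by their largest differences, and the 5 genes most like the SoxF mean, *Sox9* and *Sox4*, of which 1 is not reported here. Genes that stand for a list at or near 0, and *Prox1*, *Vcam1*, *Col2a1*, *Acan*, *Tead2*, *Dcx*, *Ezh2*, *Tek*, *Col11a2* and the overlapping RNAs, were added after their values were seen. The members and lists were chosen with earlier results of these data known. Of all genes, 220 share a symbol with another and were left out of lists.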

Additional observations from a re-analysis of the deposited data

Results flagged for a closer look

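In 3 of the 30 sets of 5 libraries (10 genes in 3 populations), the highest or lowest library lay apart from the rest by Dixon's criterion at 95%, which chance meets in about 1 of 20 sets. *Sox11* in D replicate 5 was the highest, with 1825 normalized counts against 693 to 853 in the other D libraries, from 3019 reads. *Sox6* in EVP replicate 1 was the highest, with 316 against 90.1 to 121, from 90 reads in the library with the fewest reads of all. *Sox13* in TA replicate 3 was the lowest, with 7.81 against 81.0 to 160.3, from 7 reads.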

How the results depend on the processing

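Over the log2 fold changes of the 10 genes in the 3 comparisons, 789 refits kept their direction and side of the threshold, 29 lost a call, 9 gained one and 10 turned in sign. The cause was not tested for any of these. The main counts were 7 members and 4859 genes for EVP against D, 3 and 893 for EVP against TA, and 4 and 3199 for TA against D, and several values below follow this order. Array weights gave 1 member between EVP and TA, 7 members between TA and D, and 7609 and 5054 of all genes for EVP and D and for TA and D. DESeq2 gave 1919 of all genes between EVP and TA, and quantile normalization 2117 between TA and D. With replicate number 1 left out of all populations, 0 members and 104 genes were called between EVP and TA. Replicates 4 and 5 alone, chosen after seeing the data, gave 3, 0 and 2 members and 2064, 45 and 846 of all genes, with 2 libraries per population. Leaving out single libraries gave 6 to 7 members and 4120 to 5152 of all genes between EVP and D. Between EVP and TA it gave 3 members each time and 429 to 1214 of all genes. Between TA and D it gave 3 to 6 members and 2417 to 3501 of all genes. The fewest genes between EVP and TA were called without EVP replicate 2 (429), EVP replicate 3 (472) and TA replicate 3 (560).

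Signs turned only in differences that were not called. *Sox4* between EVP and D was -0.59 with quantile normalization, and between TA and D 0.046 with replicate number 1 left out. *Sox13* between EVP and TA was -0.053 with array weights, -0.050 with DESeq2, -0.081 with edgeR, -0.17 on replicates 4 and 5 alone and between -0.40 (without TA replicate 3) and 0.65 as single libraries were left out, against 0.34. *Sox11* ranged from -0.36 to 0.093 between EVP and D and from -0.028 to 0.43 between TA and D as single libraries were left out. *Sox12* could not be tested at a minimum mean of 20 normalized counts. The median log2 fold change of all genes between EVP and D, 0.46, was -0.05 with quantile normalization and 0.36 with the same total per library. The share of calls higher in EVP fell from 60.8 to 49.2% between EVP and D with quantile normalization, and rose to 71.3% on replicates 4 and 5 alone. Between EVP and TA it was 44.6%, but 25.1% with the same total per library, 32.3% with edgeR, 53.3% with a pseudocount of 8, 58.7% with only these populations fitted, 73.3% on replicates 4 and 5 alone and 33.3 to 49.1% as single libraries were left out. The share of calls higher in TA than in D was 65.6%, and 79.8% on replicates 4 and 5 alone.

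Same-numbered libraries deviated together (r over 0.1) in 11 of 15 pairs, from -0.14 to 0.69, and 12 of 15 libraries correlated best with their own number, a hint from the data. Since the labels give no pairing and not every pair passed, the numbers were not taken as pairs. With the replicate number as a block, 7, 3 and 4 members and 5710, 1262 and 4047 of all genes were called, and no member gained or lost a call.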

Other observations

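Outside SoxF, the members whose log2 levels were most alike over the 15 libraries were *Sox9* and *Sox5* (Pearson r = 0.92), *Sox9* and *Sox12* (0.82) and *Sox12* and *Sox5* (0.81), genes of 3 different groups of the family. The SoxF genes were most unlike *Sox12*, with r from -0.84 for *Sox17* to -0.82 for *Sox18*. These are descriptions of libraries that share populations, depth and background, and the coefficients between *Sox4* and the SoxF genes lay between -0.30 and -0.25.

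At the *Sox6* locus an RNA of the opposite strand, *Gm45025*, which shares no exon base with *Sox6*, had means of 63.3 normalized counts in EVP, 13.1 in TA and 3.84 in D, while *Sox6* itself had its highest mean in TA (148, 270.1 and 72.0). The difference between these patterns was not tested.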
